A study of Mus musculus with 6 samples.

Results

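The 36 genes described here make, spend, recycle and break down glutathione in the mouse ovary. They were chosen by gene symbol from the deposited tables of 46078 genes, with no measured value in the rule: 3 genes of glutathione synthesis, 7 of its turnover and reduction, 21 glutathione transferases and 5 glutathione peroxidases. The list of symbols was nevertheless drawn up with earlier results of these data known. The study compared whole ovaries of C57BL/6 mice, 8 to 9 weeks old, in 2 groups of 3 libraries, control and CTX. CTX stands for cyclophosphamide, a drug used against cancer whose metabolites alkylate DNA and harm ovarian follicles. No genetic change is named for either group. The labels used here name no dose, route, interval after treatment or stage of the estrous cycle. They also do not tie the libraries of a group to separate animals, so each p-value below reflects variation among 6 samples that may be technical in part or whole. The question put by the series is what cyclophosphamide does to ovarian gene expression.

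Glutathione is a small thiol built from glutamate, cysteine and glycine. Glutamate-cysteine ligase carries out the first step and glutathione synthetase the second. Transferases couple the thiol to reactive compounds, among them metabolites of cyclophosphamide, peroxidases use it to reduce hydroperoxides, and glutathione reductase restores the oxidised form with NADPH. Outside the cell, gamma-glutamyltransferases open the molecule so that its amino acids can be taken up again. In the ovary, granulosa cells and steroid-making cells carry much of this system, and the corpus luteum, the steroid-making gland left after ovulation, works under a heavy oxidant load.

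The sequences that separate the 2 kinds of peroxidase are shown first, because the peroxidase results are given in that order. Gpx1, Gpx3 and Gpx4 carry selenocysteine in their active site, encoded by TGA, which elsewhere ends translation, and Gpx7 and Gpx8 carry cysteine there. Each line gives 39 coding bases, 5′ to 3′ in the sense of the gene, from the GENCODE M21 transcripts, with the codon at that position in capitals.
Gpx1, codon 47: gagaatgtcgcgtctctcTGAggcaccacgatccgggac
Gpx3, codon 73: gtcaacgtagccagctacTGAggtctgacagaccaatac
Gpx4, codon 129: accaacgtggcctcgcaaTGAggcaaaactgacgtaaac
Gpx7, codon 56: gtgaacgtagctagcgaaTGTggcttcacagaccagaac
Gpx8, codon 79: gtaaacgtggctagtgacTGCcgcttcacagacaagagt
The TGA codons are annotated as selenocysteine. Codon numbers refer to a single transcript per gene, and another transcript of the gene may number the codon differently. The Gpx4 transcript used has 253 codons before the stop. The TGT of Gpx7 and the TGC of Gpx8 are cysteine codons placed by the best ungapped match to Gpx3, in which 9 and 7 of the 13 residues were the same.

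Promoters are shown for 3 genes that differ in a known feature, the antioxidant response element, the motif through which the factor Nrf2 acts on glutathione genes. Its core was searched as TGACNNNGC on both strands of RefSeq windows of 300 bases (GRCm38.p6, 250 before to 50 after a start). In the lines below the match is in capitals: Gclm, the textbook Nrf2 target, holds it on the opposite strand 134 bases before the start (chr3:122245307-122245606, plus strand), Gsta3 holds it on its own strand 121 bases before (chr1:21240335-21240634, plus strand), and Mgst2, with the lowest CTX to control ratio of the tested members, has no match (chr3:51660929-51661228, plus strand).
Gclm: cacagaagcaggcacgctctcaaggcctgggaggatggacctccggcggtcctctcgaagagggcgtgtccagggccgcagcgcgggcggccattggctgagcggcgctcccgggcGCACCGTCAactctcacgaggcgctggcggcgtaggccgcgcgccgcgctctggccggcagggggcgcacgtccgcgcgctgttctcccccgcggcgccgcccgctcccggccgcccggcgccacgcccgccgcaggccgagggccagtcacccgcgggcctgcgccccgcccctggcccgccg
Gsta3: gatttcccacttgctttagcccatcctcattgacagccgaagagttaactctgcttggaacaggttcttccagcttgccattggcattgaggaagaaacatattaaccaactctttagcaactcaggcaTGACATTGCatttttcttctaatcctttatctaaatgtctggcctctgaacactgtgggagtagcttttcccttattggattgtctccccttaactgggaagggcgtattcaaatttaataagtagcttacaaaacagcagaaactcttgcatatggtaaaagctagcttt
Mgst2: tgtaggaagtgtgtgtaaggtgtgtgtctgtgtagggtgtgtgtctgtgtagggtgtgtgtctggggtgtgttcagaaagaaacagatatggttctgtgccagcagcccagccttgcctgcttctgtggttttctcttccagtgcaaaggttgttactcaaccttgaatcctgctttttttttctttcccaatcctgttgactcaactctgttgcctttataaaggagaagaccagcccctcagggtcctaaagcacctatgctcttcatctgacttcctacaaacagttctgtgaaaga
RefSeq windows were found for 31 of the 36 genes, 46 windows in all. The core was in 5 of the 46 (10.9%), at Gclm, Gsta3, Gstm5, Gstm7 and Mgst1, beside 12.4% of all 32851 windows. The half-site AAGGTCA of the steroidogenic NR5A receptors, searched in the same way, was in 1 of the 46 (2.17%, Gstk1), beside 4.72% of all windows. These matches describe letters and not bound sites. The Mgst2 window lies inside the GENCODE locus, which begins at chr3:51660360, so the sequence around that start was not searched. Whether a match goes with the CTX to control ratio of a gene was not tested.

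Levels are given as RPKM, reads scaled by gene length and by library depth, so that genes of different length can be compared. The libraries held about 15900000 to 16800000 reads (control) and 17000000 to 22300000 (CTX) by the step size of their values. By that step the tested members had from 53 reads (Gsta2) to 16813 reads (Gpx3) in a library, and 30 of 33 had at least 100 in each. Of the 36 genes, 33 reached an RPKM of 1 in at least 3 of the 6 libraries and were tested; Chac1, Gstm3 and Gstp2 did not. Markers of luteal, granulosa and oocyte cells were present in every library, as the tissue label asks. Of 6 hepatocyte markers, Ttr and Fgb were listed at 0 in all 6 libraries and Alb and Serpina1a stayed at or under 0.12 RPKM, but Apoa1 (7.75 to 41.65 RPKM) and Cyp2e1 (3.66 to 12.6) were present in every library. The summed hepatocyte list ran from 11.4 to 34.1 RPKM in control and from 12.9 to 54.4 in CTX, highest in control 3 and in CTX 2 and 3. The libraries of a group did not resemble each other throughout. Luteal markers (10 genes, steroid-making cells of the corpus luteum) summed to 7736, 8431 and 4107 RPKM in controls 1 to 3 and to 9859, 3153 and 3024 in CTX 1 to 3, so by this sum control 3 stood with CTX 2 and 3 and CTX 1 with controls 1 and 2. The groups are taken as labelled. Whether the labels of control 3 and CTX 1 are right was not tested, since no measure used here checks the treatment of a library, and the group means and fold changes below rest on those labels. Granulosa markers ran the other way, at 1217, 1071 and 2992 in control and 699, 2555 and 2473 in CTX. Hsd3b1, the most abundant luteal marker, spanned 2879 to 4489 RPKM in control and 1894 to 5397 in CTX. Inha, the most abundant granulosa marker, spanned 586 to 1982 in control and 437 to 1679 in CTX. Macrophage markers ranged from 332 to 496 RPKM in control and 317 to 479 in CTX, and 4 of the 6 oviduct markers stayed under an RPKM of 1. The part of this cell content in the results below was not tested beyond one model with the luteal mean as a covariate. In whole ovaries, fewer cells of a type and less RNA per cell cannot be told apart.

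None of the 33 tested genes passed an adjusted p of 0.05 in limma, and over all 14535 tested genes 0% were called (501 genes at an unadjusted p under 0.05). Voom on approximate reads also called 0 genes (464 at an unadjusted p under 0.05). Fitted values were above 0 for 18 genes and below 0 for 15, with a median log2 fold change (CTX minus control) of 0.01; over all tested genes 48.8% were above 0 and the median was -0.01. At an unadjusted p under 0.05, 2 of the 33 stood out, Ggt5 and Mgst2, both lower in CTX (6.06%, beside 3.45% of all genes in either direction and 2.29% in the lower). Ggt5 was also the only member whose groups did not overlap, 1 of 33 (3.03%), beside 8.83% of all tested genes (5.5% lower in CTX, 3.32% higher). These counts describe the list and do not test it, and the classes are described below library by library.

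**Figure D1:**
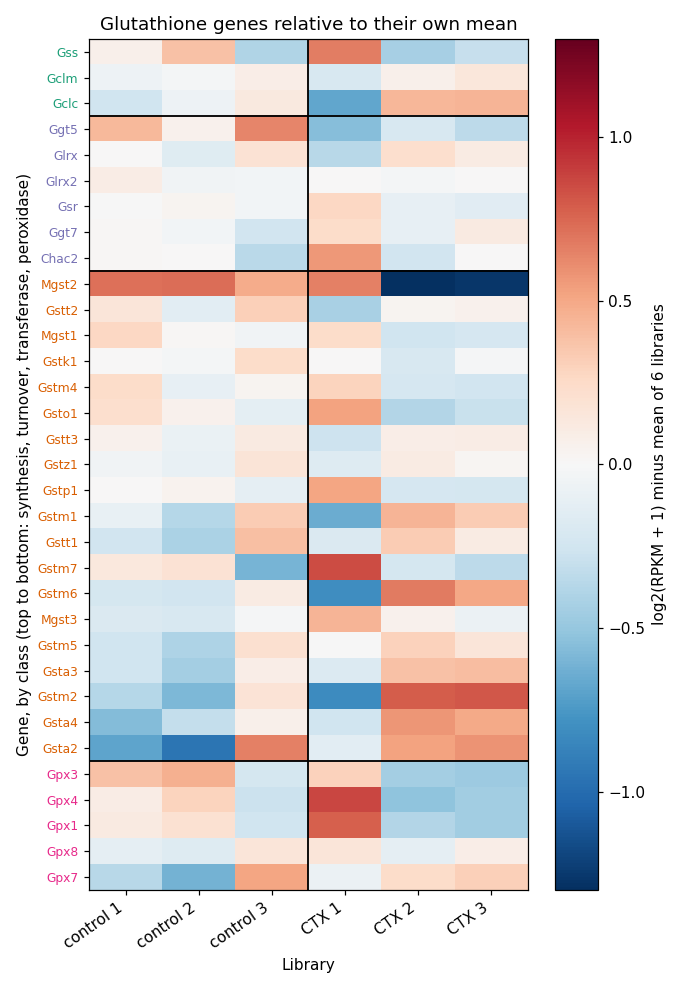
Heat map of the 33 tested genes (rows, ordered by class and fitted difference) in the 6 libraries (columns); colour is log2(RPKM + 1) minus the gene's mean over the 6 libraries. CTX 2 and 3 share one pattern, CTX 1 often has the opposite colour, and Ggt5 is above its mean in the 3 controls and below it in the 3 CTX libraries.

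The genes for making glutathione showed no difference between the groups beyond the spread within them. Gclc, the catalytic subunit of glutamate-cysteine ligase, had 22.9, 26.3 and 30.2 RPKM in control and 17.0, 37.5 and 37.8 in CTX. CTX 2 and 3 lay above every control and CTX 1 below every control, and the group means were 26.5 ± 3.61 and 30.8 ± 12.0 (SD, n = 3 each; log2 fold change 0.13 ± 0.32 SE). Gclm, the regulatory subunit, was the steadiest of the 3, with 7.73, 8.03 and 8.74 RPKM in control and 6.92, 8.56 and 9.16 in CTX (0.00 ± 0.13). The ratio of Gclc to Gclm in RPKM was 2.97, 3.28 and 3.45 in control and 2.45, 4.38 and 4.13 in CTX. Gss, glutathione synthetase, had 4.17, 5.46 and 2.77 RPKM in control and 6.87, 2.67 and 3.03 in CTX (log2 fold change -0.04 ± 0.35). CTX 1 had the most Gss and the least Gclc. Gclc exceeded Gss 2.47-fold in CTX 1 but 14.1-fold in CTX 2 and 12.5-fold in CTX 3, while controls spanned 4.82 to 10.9. Of the 5915 exonic bases of Gss, 913 lie opposite exons of Acss2, Gssos1 and Gssos2, and without knowledge of strand in the counting, reads of these genes cannot be told apart there.

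Ggt5 was lower in CTX in every library, and no other member separated the groups. It encodes a gamma-glutamyltransferase of the cell surface that acts on glutathione and on its conjugate leukotriene C4, and lies at chr10:75589340-75617200. Ggt5 had 11.8, 8.90 and 13.8 RPKM in controls 1 to 3 and 5.51, 7.26 and 6.51 in CTX 1 to 3. The lowest control was above the highest CTX library, and the CTX values lay close together. Means were 11.5 ± 2.45 and 6.43 ± 0.878 (SD, n = 3 each), a 1.79-fold higher level in control, with a log2 fold change of -0.74 ± 0.18 and limma's adjusted p = 1.00 (unadjusted 0.00615). Its order across libraries was not that of the luteal markers: control 3, low in those markers, had the most Ggt5, and CTX 1, rich in them, the least. Its fitted difference stayed between -0.89 and -0.60 when each library was left out in turn. With the luteal mean as a covariate limma's adjusted p was 0.15, and over the 19 alternatives it ranged from 0.00319, with array weights, to 1.00. Markers of the ovarian surface epithelium lay in the same direction as Ggt5: 8 of 8 had fitted values below 0 with 0 called, and they summed to 64.5, 50.65 and 67.2 RPKM in control and 31.1, 45.9 and 43.3 in CTX, also without overlap. Upk3b, the most abundant of them, spanned 9.89 to 12.7 RPKM in control and 5.95 to 11.4 in CTX. The summed surface markers ranked the 6 libraries in the same order as Ggt5, from control 3 as the highest to CTX 1 as the lowest. The part of these markers' cells in the Ggt5 result was not tested. No 50-base stretch of its transcripts is shared with another gene.

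The other genes of turnover showed smaller differences. Gsr, glutathione reductase, had 22.6, 23.3 and 22.1 RPKM in control and 27.7, 21.04 and 20.4 in CTX. The controls were nearly equal and CTX 1 alone was high, which left a log2 fold change of 0.01 ± 0.14. Glrx, the cytosolic glutaredoxin that removes glutathione from proteins, had 14.0, 12.4 and 16.0 RPKM in control and 10.6, 16.4 and 15.1 in CTX (-0.02 ± 0.19), so CTX 1 was the lowest and the groups overlapped. Glrx2, its mitochondrial relative, had the smallest ratio of highest to lowest library among the 33, from 5.08 to 5.73 RPKM. Chac2, a cytosolic enzyme that degrades glutathione, spanned 6.97 to 9.27 RPKM in control and 7.51 to 13.96 in CTX, again with the top value in CTX 1. Chac1, the stress-induced member of that pair, was at 0.08 to 0.40 RPKM in control and 0.29 to 0.67 in CTX and was not tested. Ggt7, of the same family as Ggt5, had 1.62 to 2.16 RPKM in control and 1.90 to 2.69 in CTX (0.17 ± 0.16).

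**Figure D2:**
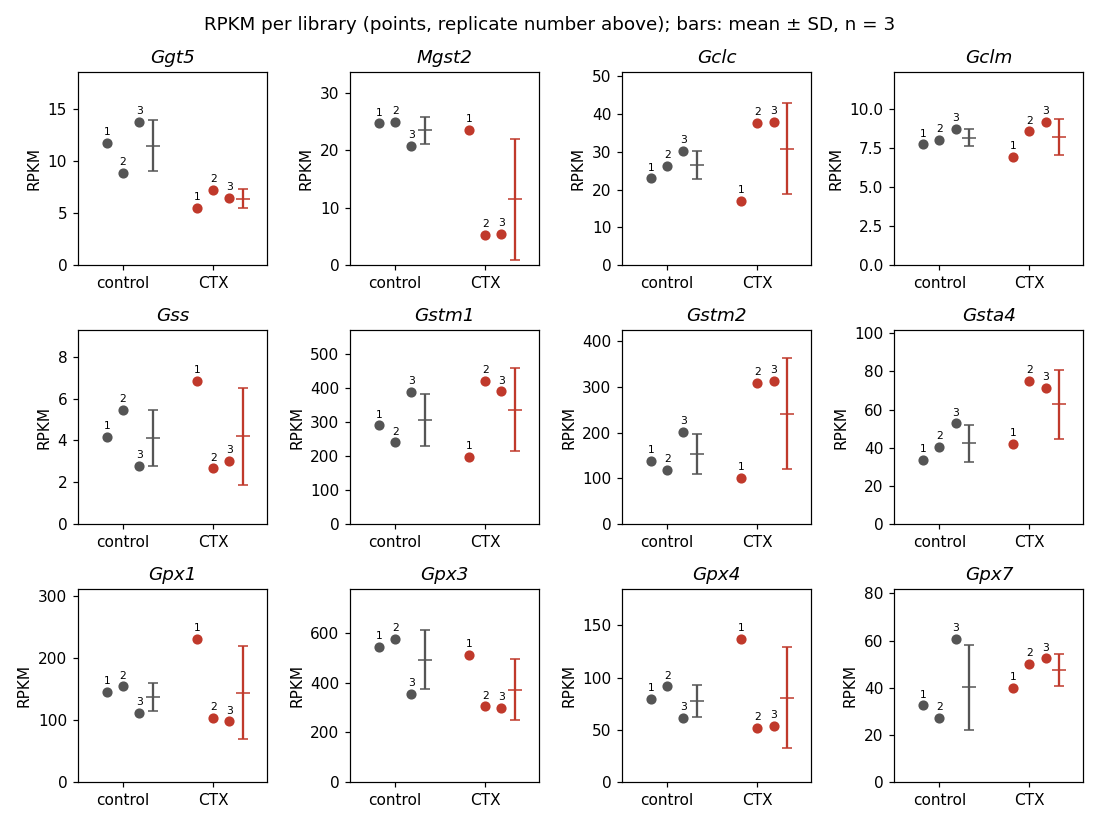
RPKM of 12 members in each library (points, numbered by replicate), with mean ± SD (n = 3) beside each group; each panel has its own axis from 0. Ggt5 separates the groups, while in Mgst2 CTX 1 (23.6 RPKM) stands among the controls and CTX 2 and 3 lie near 5.

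The alpha and mu transferases are soluble enzymes that conjugate lipid aldehydes and drug metabolites. In several of them the 3 highest libraries were CTX 2, CTX 3 and control 3: Gsta2, Gsta3, Gsta4, Gstm1, Gstm2, Gstm5 and Gstm6. This was not particular to them, since Gclc, Gclm, Glrx, Gstt1, Gstt3, Gstz1 and Gpx7 had the same 3 highest libraries. The share of all tested genes with these 3 libraries highest was not counted. Those 3 libraries also had the most of the adipocyte markers: the 7 adipocyte markers summed to 8.54, 5.46 and 133 RPKM in control and 7.12, 181 and 169 in CTX, and Cfd, the most abundant, was at 90.8 in control 3, at 109 and 97.1 in CTX 2 and 3, and at most 1.63 elsewhere. Oocyte markers (354 RPKM in control 3, 401 and 393 in CTX 2 and 3, 111 to 173 elsewhere), theca markers (1389, 1709 and 1710, against 745 to 964) and oviduct markers (11.1, 16.6 and 17.5, against 4.83 to 6.49) were highest in the same libraries, as were the granulosa and hepatocyte sums. The part of any of these cells in the transferase levels was not tested. The alpha members Gsta2, Gsta3 and Gsta4 all had fitted values above 0 (median 0.54), with none called. Gsta4, which conjugates the lipid aldehyde 4-hydroxynonenal, was chosen with its values in view and had 33.6, 40.4 and 52.7 RPKM in control and 42.0, 75.2 and 71.3 in CTX. CTX 2 and 3 exceeded every control and CTX 1 did not (log2 fold change 0.54 ± 0.27). Gsta2 had 3.63, 2.84 and 10.7 RPKM in control and 5.76, 9.68 and 10.1 in CTX (0.65 ± 0.45). The log2 fold change was 1.14 without control 3, 0.34 without control 2 and between these with any other library left out. Control 3 had the highest level of all, so the groups overlapped widely. Of the 50-base windows of Gsta2, 49.8% occur in other genes, mainly Gsta1, which was listed at 0 in every library, so the split of reads between these copies is uncertain.

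The mu genes lie in one cluster on chromosome 3, from 107895821 (Gstm5) to 108044894 (Gstm4). Gstm1, the most abundant transferase, had 291, 240 and 390 RPKM in control and 198, 423 and 391 in CTX (0.09 ± 0.34). CTX 1 was the lowest of the 6, and control 3 matched CTX 3. Gstm2 had 137, 118 and 202 RPKM in control and 100, 309 and 314 in CTX (0.52 ± 0.48). The log2 fold change was 1.06 without CTX 1 and 0.24 without CTX 3, the ends of the range over single libraries left out. CTX 2 and 3 were above every control and CTX 1 below every control, the same split as in Gclc. The ratio of Gstm2 to Gstm1 was 0.47, 0.49 and 0.52 in control and 0.51, 0.73 and 0.80 in CTX, so CTX 2 and 3 had more Gstm2 relative to Gstm1 than control 3 did. Gstm6 had 4.77, 4.69 and 6.29 RPKM in control and 2.88, 9.84 and 8.60 in CTX (0.25 ± 0.40), with CTX 2 and 3 the highest and CTX 1 the lowest, as for Gstm2. Gstm7 had another order, with 24.2, 24.95 and 14.1 RPKM in control and 40.2, 18.6 and 17.0 in CTX (0.19 ± 0.37). It was highest in CTX 1, where Gstm1, Gstm2 and Gstm6 were lowest. Gstm5, at 23.6 to 36.7 RPKM in control and 31.6 to 39.2 in CTX, had its 3 CTX libraries within a narrow range. Gstm4 was at 6.24 to 8.24 RPKM in control and 5.58 to 8.56 in CTX, and Gstm3 was at or near 0 throughout (at most 0.14). Gstm1 shares 18.9% of its 50-base windows with other genes, chiefly the pseudogene Gstm2-ps1, and Gstm2 shares 5.65%.

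Gstp1, the pi transferase, had 90.6 to 102 RPKM in control and 83.8 to 140 in CTX, with CTX 1 alone above the controls. Its copy Gstp2, 98.1% identical in coding sequence, had 0.90, 0.57 and 1.86 RPKM in control and 1.07, 0.87 and 0.99 in CTX. More than any other member it rests on how reads were shared out: 54.3% of its 50-base windows occur elsewhere. Of the windows of Gstp1, 33.7% occur in other genes, all of them in Gstp2. The theta genes Gstt1, Gstt2 and Gstt3 and the mitochondrial Gstk1 had fitted values between -0.22 and 0.17. Gstz1, an isomerase of tyrosine breakdown, was at 28.2 to 34.1 RPKM in control and 26.8 to 32.6 in CTX. Gsto1, an omega transferase that also reduces dehydroascorbate, spanned 30.4 to 38.9 in control and 25.3 to 48.0 in CTX, highest in CTX 1.

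The microsomal transferases are membrane enzymes unrelated to the soluble ones, and Mgst2 had the largest ratio of highest to lowest library among the tested members. Mgst2 can also make leukotriene C4, the substrate of the Ggt5 enzyme, and lies at chr3:51660360-51682677. Controls 1 to 3 had 24.7, 24.95 and 20.8 RPKM of Mgst2. CTX 1 had 23.6, inside the control range, whereas CTX 2 had 5.30 and CTX 3 had 5.54. Means were 23.5 ± 2.31 and 11.5 ± 10.5 (SD, n = 3 each) and the log2 fold change was -1.28 ± 0.52, with limma's adjusted p = 1.00 (unadjusted 0.0480). One library decides this value. Without CTX 1 the log2 fold change was -1.93 ± 0.11 with limma's adjusted p = 0.0487, which passed the threshold, as did 0.0206% of all tested genes in the lower direction. The CTX group of that fit was CTX 2 and 3 alone, the most alike pair of libraries over all tested genes. The labels do not say whether these 2 libraries come from separate animals, so the small SE may reflect technical variation only. Single luteal and granulosa markers, chosen with their values in view, also separated control 3 from CTX 2 and 3, although the sums of their lists lay closer. Star, the carrier of cholesterol into mitochondria, was at 293 RPKM in control 3 against 65.8 and 65.0 in CTX 2 and 3. The other libraries held 532 to 572 RPKM of Star, so CTX 2 and 3 stood far below the rest, as for Mgst2. The luteal markers were divided in this comparison. Hsd3b1, Prlr, Hsd17b7 and Parm1 were also higher in control 3 than in CTX 2 and 3. Lhcgr, Cyp11a1, Scarb1, Ptgfr and Akr1c18 were lower in control 3, with Lhcgr at 43.7 RPKM against 111 and 108 in CTX 2 and 3. Inhbb, an inhibin and activin subunit, had 255 RPKM in control 3 against 69.0 and 71.1 in CTX 2 and 3, and Cyp19a1, aromatase, 8.51 against 32.8 and 33.9. With the luteal mean as a covariate over all 6 libraries, the log2 fold change was -0.94 and limma's adjusted p = 0.350; over the 19 alternatives that p ranged from 0.00131, with array weights, to 1.00. Markers of other cells did so too. The 7 erythroid markers summed to 18.4, 27.2 and 22.8 RPKM in control and 21.8, 75.5 and 66.5 in CTX, and the 7 endothelial markers to 135, 144 and 129 in control and 146, 109 and 104 in CTX. Hbb-bs, the most abundant erythroid gene, spanned 10.7 to 13.8 RPKM in control and 12.1 to 39.99 in CTX, and Cldn5, the most abundant endothelial gene, 32.7 to 42.96 and 29.4 to 39.5. The part of these cells in the Mgst2 result was not tested beyond the luteal covariate. Of its 50-base windows, 0.475% occur in other genes. Mgst1, the most abundant of the microsomal genes, spanned 156 to 193 RPKM in control and 134 to 189 in CTX (-0.16 ± 0.18). The ratio of Mgst2 to Mgst1 was 0.13, 0.15 and 0.13 in control, 0.12 in CTX 1 and 0.04 in both other CTX libraries. Mgst3 had 19.5 to 22.4 RPKM in control and 21.4 to 31.3 in CTX (0.28 ± 0.16), with CTX 1 the highest.

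**Figure D3:**
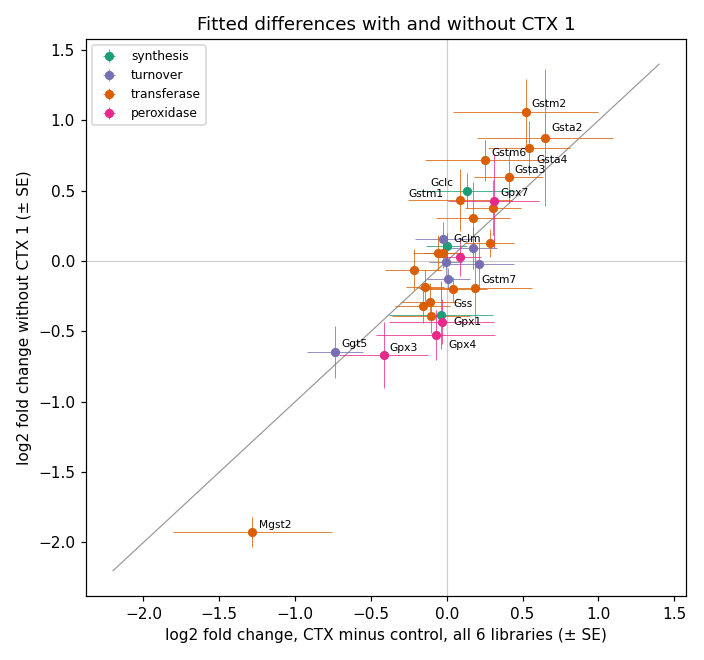
Log2 fold change (CTX minus control) of the 33 tested genes with all 6 libraries (x axis) and without CTX 1 (y axis), each with its SE, coloured by class; the grey diagonal marks equal values. Mgst2 lies at -1.28 on the x axis and -1.93 on the y axis, Gclc and Gstm2 lie above the diagonal, Gpx1 and Gpx4 below it, and Ggt5 near it.

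Neither the selenocysteine nor the cysteine peroxidases had a called gene, and the 2 kinds lay in different orders across the libraries. Gpx3, the secreted peroxidase, was the most abundant of all 36, with 543, 574 and 355 RPKM in control and 511, 305 and 298 in CTX. Means were 491 ± 118 and 372 ± 121 (SD, n = 3 each; log2 fold change -0.42 ± 0.30). Control 3 was low with CTX 2 and 3, and CTX 1 stood with the other controls, as the luteal markers did. Gpx1, the cytosolic peroxidase of small hydroperoxides, had 146, 155 and 112 RPKM in control and 231, 103 and 98.4 in CTX (-0.03 ± 0.35). Gpx4, which reduces phospholipid hydroperoxides in membranes and guards against ferroptosis, had 79.8, 91.6 and 61.4 RPKM in control and 137, 51.8 and 54.2 in CTX (-0.07 ± 0.39). For both genes CTX 1 was above every control and CTX 2 and 3 below every control, so a group difference near 0 came from CTX libraries on either side of the controls. Of the windows of Gpx4, 34.7% are shared with other loci, chiefly the pseudogene Gpx4-ps2.

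The cysteine peroxidases Gpx7 and Gpx8, both of the endoplasmic reticulum, had fitted values above 0 and lay in another order. Gpx7, also chosen with its values in view, had 32.7, 27.4 and 60.7 RPKM in control and 40.1, 50.2 and 52.6 in CTX (0.31 ± 0.30). Its highest and lowest libraries were both controls: the log2 fold change was 0.64 without control 3 and 0.083 without control 2. Gpx8 spanned 41.4 to 52.2 RPKM in control and 43.1 to 52.1 in CTX (0.09 ± 0.14). Summed over Gpx1, Gpx3 and Gpx4, levels were 769, 821 and 529 RPKM in control and 879, 460 and 451 in CTX, while Gpx7 and Gpx8 together gave 75.5, 68.8 and 113 in control and 92.3, 93.2 and 102 in CTX. The cysteine pair thus made up between 7.74 and 18.5% of the summed peroxidase RPKM of a library.

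Summed over all 36 genes, RPKM was nearly the same in every library: 1929, 1868 and 1890 in control and 2004, 1913 and 1877 in CTX (1896 ± 30.9 and 1931 ± 65.4, SD, n = 3 each). Summed RPKM of all genes in the table differed more, at 389708 in CTX 1 and 328258 to 347452 in the other libraries. The makeup of the sum over the 36 genes also differed. Transferases gave 984, 878 and 1140 RPKM in control and 935, 1251 and 1214 in CTX, and peroxidases 844, 889 and 642 in control and 971, 554 and 553 in CTX. The 3 libraries with the most transferase RPKM, control 3 and CTX 2 and 3, had the least peroxidase RPKM. In CTX 1 and control 2 peroxidases gave more than transferases. Gstm1, Gstm2, Mgst1 and Gstp1 together made up 67.1 to 76.2% of the transferase sum, and Gpx3 alone 52.7 to 64.6% of the peroxidase sum, so a few genes set these totals. By median log2 fold change the classes lay at 0.00 for synthesis (3 tested), 0.00 for turnover (6), 0.09 for transferases (19) and -0.03 for peroxidases (5).

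**Figure D4:**
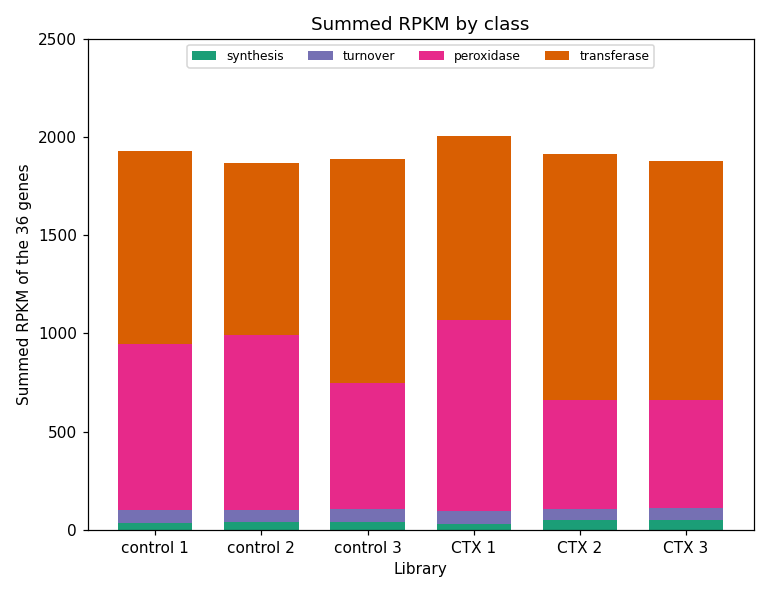
Stacked bars of summed RPKM of the 36 genes by class in each library, from 0. The totals stay between 1868 and 2004, while the peroxidase layer ranges from 553 to 971 and the transferase layer from 878 to 1251.

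How alike the libraries were in these genes can be put in one number, the mean absolute difference on the log2(RPKM + 1) scale over the 33 genes. CTX 2 and CTX 3 were the most alike pair, at 0.0939 (0.131 over all tested genes), and controls 1 and 2 the next, at 0.1496 (0.165). CTX 1 and CTX 2, of one group, were the least alike, at 0.704 (0.536). Control 3 was nearer to CTX 3, at 0.271, than to control 1, at 0.371. In 31 of the 33 genes the range within CTX was wider than the difference between the group means, beside 88.7% of all tested genes; Ggt5 and Gstm5 were the exceptions. The range within control was wider in 30 of the 33, all but Ggt5, Mgst2 and Mgst3, beside 82.2% of all tested genes. CTX 1 was the highest library in 11 genes and the lowest in 10, together 63.6% of the 33, beside 65.9% of all tested genes.

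The calls depend on which libraries are kept and how they are weighted. Leaving CTX 1 out gave 1 lower call among the members, Mgst2, and turned the sign of 7 members. Without CTX 1, 0.0344% of all tested genes were called in either direction and 0.0138% called higher. Weighting libraries by their fit in limma (array weights) gave CTX 1 a weight of 0.08 and control 3 a weight of 0.25, against 6.36 for control 1. In that fit 11 members were called higher and 11 lower, beside 27.9% and 18.9% of all tested genes. Over all tested genes 46.8% were called there. The members called higher were Gclc, Gsta2, Gsta3, Gsta4, Gstm1, Gstm2, Gstm5, Gstm6, Gstt1, Mgst3 and Gpx7. Those called lower were Gss, Ggt5, Gstm4, Gstm7, Gstp1, Gsto1, Mgst1, Mgst2, Gpx1, Gpx3 and Gpx4. Models with a covariate called none of the 33: with the luteal mean 0.0138% of all tested genes were called, all lower, and with the first component of the residuals 1.09% (0.502% higher, 0.592% lower). Limma's smallest adjusted p among the members in these models was 0.0540, the same for Ggt5 and Mgst2, in the latter.

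The neighbouring genes of the pathway, 4 lists with 67 genes found, gave 56 tested genes, of which 30 were above and 26 below 0 and 0 were called in limma. Groups did not overlap in 4 of the 56 (7.14%), beside 8.83% of all tested genes. Slc3a2, the heavy chain that the cystine transporter needs, had 78.5, 76.7 and 80.6 RPKM in control and 91.2, 90.2 and 82.7 in CTX. Its light chain Slc7a11 was at 0.30 to 0.63 RPKM and was not tested. Pgd, an NADPH-making enzyme of the pentose phosphate pathway, had 25.6, 25.6 and 26.0 RPKM in control and 27.6, 32.2 and 30.7 in CTX. Slc3a2 and Pgd are named because their groups did not overlap, so the agreement of all 3 CTX libraries follows from that choice. Limma's unadjusted p was 0.174 for Slc3a2 and 0.0780 for Pgd. Txn1, thioredoxin, had 104, 112 and 110 RPKM in control and 179, 122 and 116 in CTX. Hpgds, a transferase of the sigma class that makes prostaglandin D2, was the one lower gene, with 3.06, 2.28 and 1.93 RPKM in control and 1.83, 1.78 and 1.82 in CTX.

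In the list of the Nrf2 system and NADPH supply, 2 of 12 tested genes were above 0 and 10 below, with a median of -0.11 and 0 called; over all genes the median was -0.01. Idh1, its most abundant gene and a cytosolic source of NADPH, had 754, 894 and 239 RPKM in control and 1115, 186 and 199 in CTX. It was high in controls 1 and 2 and CTX 1, as the luteal markers were. Supply of cysteine and glutamate had 6 genes above and 2 below 0 (median 0.17), with Glul, glutamine synthetase, the most abundant at 112 to 138 RPKM in control and 106 to 147 in CTX. Thioredoxin, peroxiredoxin and other antioxidant genes had 10 above and 6 below 0 (median 0.03). Sod1, a superoxide dismutase and the most abundant of these, spanned 343 to 450 RPKM in control and 291 to 747 in CTX, highest in CTX 1 as Gpx1 and Gpx4 were. Glutathione genes outside the 36 had 12 above and 8 below 0 (median 0.00), and the most abundant, the mitochondrial glutaredoxin Glrx5, spanned 63.9 to 77.3 in control and 59.3 to 121 in CTX.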

How the data were processed

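RNA from 6 whole-ovary libraries was sequenced; per the labels' protocols, libraries were made from Trizol-extracted total RNA with a TruSeq RNA kit. Each library's deposited table gives 1 value per gene, taken from the values to be RPKM computed by the authors and rounded to 2 decimals. The submitters' processing notes name Bowtie 0.12.2 and mm10; for the counter, annotation, strand use and handling of multiple matches, the method is not given in the sources used here. Depth was read from the step size of low RPKM values with exon lengths of GENCODE M21 (GRCm38), which 97.6 to 98.0% of values matched within 0.2 reads. No pair of libraries was identical, and all 6 were kept. GENCODE matched 45143 identifiers. Gstp1 and Gstp2 each have a second row, at 0 throughout, which was not used.

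The groups were compared on log2(RPKM + 1) by limma 3.58.1 under R 4.3.3, with trend, over genes that reached an RPKM of 1 in 3 or more of the 6 libraries, two-sided tests and Benjamini-Hochberg adjustment over all 14535 genes. Fold changes are on the log2(RPKM + 1) scale, which understates changes of low genes. Errors are SD over 3 libraries, or SE of the fit. The scripts were tested on simulated data. The members and lists were chosen with earlier results of these data known. Values per library are given for members called, not overlapping between groups, among the 2 most abundant of their class or the 10 with the largest ratio of highest to lowest library (mean RPKM of at least 1), and of other lists for genes without overlap and the most abundant. The 19 alternatives covered pseudocount, filter, scaling, trend, weights, covariates, replicate block, voom on approximate reads and each library left out.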

Additional observations from a re-analysis of the deposited data

How the results depend on the processing

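Of the 33 tested members, 17 kept the sign of their fitted difference under all 19 alternatives and 16 turned under at least 1. Ggt5 and Mgst2 stayed lower under all 19. Dropping the trend, adding the replicate block or adding the first residual component leaves every fold change as it was. In those fits no sign could turn, so they say nothing about the stability of signs. With array weights 4062 genes were called higher and 2747 lower, among them 11 and 11 members, and medians became 0.16 for synthesis, -0.10 for turnover and -0.50 for peroxidases. With the first component of the residuals added to the model, 73 genes were higher and 86 lower. With the luteal covariate 2 genes were lower. When each library was left out, 0 to 2 genes were called higher and 0 to 3 lower, 0 to 1 member lower, and the peroxidase median ran from -0.43 to 0.17; the most calls came without CTX 1. The cause was not tested.

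Log2 fold changes of some members turned sign. With the luteal covariate they were -0.079 for Gclc, -0.067 for Gclm, 0.22 for Gss, 0.0012 for Glrx2, -0.16 for Gstm1, -0.017 for Gstm6, 0.068 for Gsto1, 0.21 for Gpx1 and 0.21 for Gpx4. Rescaling without the 20 most abundant genes gave -0.034 for Gclm and -0.029 for Gsr. Voom gave -0.0032 for Gclm. Quantile normalization gave -0.021 for Gsr, 0.020 for Glrx2 and -0.038 for Gstp1. Array weights gave -0.12 for Gsr, -0.13 for Chac2, 0.17 for Glrx, -0.38 for Gstm7, -0.22 for Gstp1, 0.047 for Gstt3 and 0.11 for Gstz1. Trimmed-mean scaling gave 0.0038 for Glrx2. With each library left out in turn, ranges were -0.018 to 0.39 for Chac2, -0.054 to 0.50 for Gclc, -0.074 to 0.11 for Gclm, -0.14 to 0.15 for Glrx, -0.033 to 0.040 for Glrx2, -0.43 to 0.18 for Gpx1, -0.52 to 0.17 for Gpx4, -0.12 to 0.088 for Gsr, -0.38 to 0.17 for Gss, -0.11 to 0.43 for Gstm1, -0.025 to 0.72 for Gstm6, -0.19 to 0.41 for Gstm7, -0.39 to 0.063 for Gsto1, -0.20 to 0.17 for Gstp1, -0.12 to 0.061 for Gstt3 and -0.083 to 0.056 for Gstz1. Among members that kept their sign, ranges were 0.093 to 0.27 for Ggt7, -0.67 to -0.28 for Gpx3, 0.083 to 0.64 for Gpx7, 0.025 to 0.19 for Gpx8, 0.34 to 1.14 for Gsta2, 0.29 to 0.60 for Gsta3, 0.39 to 0.80 for Gsta4, -0.19 to -0.063 for Gstk1, 0.24 to 1.06 for Gstm2, -0.29 to -0.018 for Gstm4, 0.18 to 0.48 for Gstm5, 0.012 to 0.41 for Gstt1, -0.34 to -0.062 for Gstt2, -0.32 to -0.065 for Mgst1 and 0.13 to 0.39 for Mgst3.

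Same-numbered deviations from the group means correlated at 0.401, -0.54 and 0.598, and differently numbered ones between -0.66 and 0.614. With 3 libraries in a group, these values cannot show whether the replicate numbers pair the samples. With the replicate block 0 genes and 0 members were called. That model had 456 genes at an unadjusted p under 0.05 and a smallest limma adjusted p of 1.00. Rounding hides the exact reads of long genes, and values therefore carry no counting interval.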

Other observations

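Some genes beside the pathway were picked after their values were seen, and none passed limma's adjusted p. Dpep1, a membrane dipeptidase that splits the cysteinylglycine left by gamma-glutamyltransferases, had 2.55, 2.16 and 4.01 RPKM in control and 3.91, 10.1 and 8.86 in CTX. CTX 1 lay just inside the control range, and CTX 2 and 3 above every control. Cbs, which starts the making of cysteine from homocysteine, had 2.63, 2.47 and 7.05 RPKM in control and 1.75, 11.5 and 10.9 in CTX, so its lowest and highest libraries were both CTX. Srxn1, sulfiredoxin, had 17.6, 20.8 and 9.84 RPKM in control and 21.5, 7.97 and 7.02 in CTX, and Prdx6, a peroxiredoxin that is reduced with glutathione, had 61.9, 73.1 and 37.4 in control and 114, 31.6 and 31.8 in CTX. In both, CTX 1 was the highest library and CTX 2 and 3 lay below every control, as in Gpx4. Hmox1, a heme-degrading Nrf2 target, was at 29.3 to 34.4 RPKM in control and 21.1 to 29.8 in CTX.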
